A study of Homo sapiens with 4 samples.

Results

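Treated H1299 cells were set against treated HCT116 cells to ask which genes that separate the lines still do so after combined DNA methyltransferase and histone deacetylase inhibition, which no longer do, and which separate the lines only then. The cells were chosen by the line and treatment written at the end of each cell barcode, which gave 8053 of the 15289 cells, 3726 from H1299 and 4327 from HCT116. H1299 is an established human non-small cell lung cancer line that makes no p53 protein, and HCT116 is an established human colorectal cancer line with intact p53. Treated cultures of both lines received decitabine (DAC, 5-aza-2'-deoxycytidine) at 500 nM for 72 h and SB939 (pracinostat) at 500 nM for 18 h, the pair being written DAC+SB. The 7236 control cells of both lines received the solvent DMSO instead (control H1299 and control HCT116 below), and all cultures were at passage 5 to 10. Each of the 4 groups is 1 library made with 5′ single-cell chemistry, so no difference between lines or treatments has a replicate check and no test was made.

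Decitabine is built into new DNA and traps the enzymes that copy DNA methylation to the daughter strand, so methylation is lost as cells divide. Histone deacetylase inhibitors keep acetyl groups on histones and so favour open chromatin. Genes whose promoters are densely methylated in one line and not in another, among them cancer-testis antigens, metallothioneins and epithelial or mesenchymal identity genes, are the classical genes re-expressed by such drugs, as are the long terminal repeats of old retroviruses.

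The promoters of 4 genes, picked as examples of outcomes described below, show the sequence that DNA methylation acts on. MAGEB2 and GPX1 converged, NTM persisted and CCK diverged from low levels. The 250 bases before the annotated start are printed from RefSeq on GRCh38.p14, 5′ to 3′ along the gene, with every CG dinucleotide, the site of methylation, in capitals. CG reads the same on both strands. RefSeq places these starts inside the GENCODE gene positions given below. The printed bases therefore overlap those positions, almost wholly for GPX1 and in part for the others.
MAGEB2, chrX:30215313-30215562, plus strand: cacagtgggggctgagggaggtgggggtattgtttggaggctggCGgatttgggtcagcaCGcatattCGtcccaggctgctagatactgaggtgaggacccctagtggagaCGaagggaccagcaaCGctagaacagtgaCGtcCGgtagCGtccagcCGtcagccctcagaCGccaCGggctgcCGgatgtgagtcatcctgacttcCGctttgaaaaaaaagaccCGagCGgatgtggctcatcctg
GPX1, chr3:49358354-49358603, minus strand: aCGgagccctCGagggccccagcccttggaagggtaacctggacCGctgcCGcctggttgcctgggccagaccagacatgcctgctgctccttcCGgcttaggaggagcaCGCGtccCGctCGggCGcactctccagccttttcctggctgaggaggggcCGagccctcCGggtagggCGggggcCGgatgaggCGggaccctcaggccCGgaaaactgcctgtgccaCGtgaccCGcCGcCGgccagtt
NTM, chr11:131370365-131370614, plus strand: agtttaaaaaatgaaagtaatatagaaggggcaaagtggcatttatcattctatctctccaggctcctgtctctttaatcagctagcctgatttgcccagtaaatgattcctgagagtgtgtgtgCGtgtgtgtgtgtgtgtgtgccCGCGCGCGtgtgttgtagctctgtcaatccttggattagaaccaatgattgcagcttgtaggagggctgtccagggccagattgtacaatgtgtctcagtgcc
CCK, chr3:42266186-42266435, minus strand: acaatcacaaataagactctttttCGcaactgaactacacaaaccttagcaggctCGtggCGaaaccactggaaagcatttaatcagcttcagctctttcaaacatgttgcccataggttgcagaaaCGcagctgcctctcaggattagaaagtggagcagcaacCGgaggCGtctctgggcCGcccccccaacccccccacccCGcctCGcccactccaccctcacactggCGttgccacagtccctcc
Counted over 300 bases, with 50 bases after the start included, these promoters held 21 CG for MAGEB2, 23 for GPX1, 6 for NTM and 13 for CCK. The median over the 27305 RefSeq promoters was 14, and 95.8% held at least 1. At least as many as MAGEB2 were held by 39.5% of promoters, as GPX1 by 35.6%, as CCK by 51.5% and as NTM by 65.6%. A comparison of CG content between the outcome classes was void, because in most classes fewer than 80% of the protein-coding genes could be matched to a RefSeq promoter. The 4 examples do not stand for their classes either. Over the matched genes alone the median was 23 for persisting and 25 for converging H1299-high genes. It was 23 and 22.5 on the HCT116 side, and 26 over all genes passing with DAC+SB. For genes diverging from low levels it was lower, 16 on the H1299 side and 12 on the HCT116 side. In these 2 classes 81.6% and 66.8% of the protein-coding genes were matched.

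Library totals of gene plus transposable element (TE) counts ran from 38927267 to 64524196, with HCT116 DAC+SB the lowest. The median count per cell was 15784.5 in H1299 DAC+SB and 8449 in HCT116 DAC+SB. Mitochondrial genes took a median 8.87% of counts in treated H1299 cells and 18.6% in treated HCT116 cells, and 88 and 1086 cells lay above 25%. The treated libraries had 30 cell barcodes in common, 0.805% of the H1299 and 0.693% of the HCT116 barcodes. Depth, mitochondrial share and line cannot be told apart with 1 library a group. Levels are given as CPM, that is counts scaled to the library's gene plus TE total,, and a line ratio is H1299 over HCT116 on these levels. Folds carry an exact conditional binomial 95% interval, and shares of cells an exact Clopper-Pearson one where an interval is given. Both cover counting error only. A gene is called higher in a line when it has at least 100 counts in the higher library, the one with the higher CPM, and a ratio of at least 4.

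With DAC+SB, 1334 of 14764 genes (9.04%) were called higher in H1299 and 692 (4.69%) higher in HCT116. With DMSO the numbers were 1368 (9.92%) and 1119 (8.11%) of 13795 genes, so on CPM the H1299 side was of similar size and the HCT116 side smaller in the treated comparison. The treated numbers were 1117 and 774 with median-of-ratios size factors, and 1103 and 687 with libraries thinned to the shallowest total. H1299 held 65.8% of the 2026 treated calls. That share was 59.1% with median-of-ratios size factors, 61.7% with mitochondrial and ribosomal protein genes left out of the denominator, 56.5% with a limit of 10 counts, and 74.5% over numbered features listed in all 4 libraries, where 1173 genes were called higher in H1299 and 401 in HCT116. Size factors shifted every treated log2 line ratio by -0.17 and the smaller denominator by -0.10. The last restriction was tried because the deposited table splits many genes into numbered features that are listed in a library only from 10 counts. It is called the shared-feature value below and is given beside many of the treated ratios that it moves by more than 1.5 times, while DMSO ratios are over all features unless stated. It also drops features unlisted with DMSO, so it keeps few counts of some genes that were near 0 there, and for called genes with fewer than 100 counts left in both treated libraries it is not given.

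**Figure D1:**
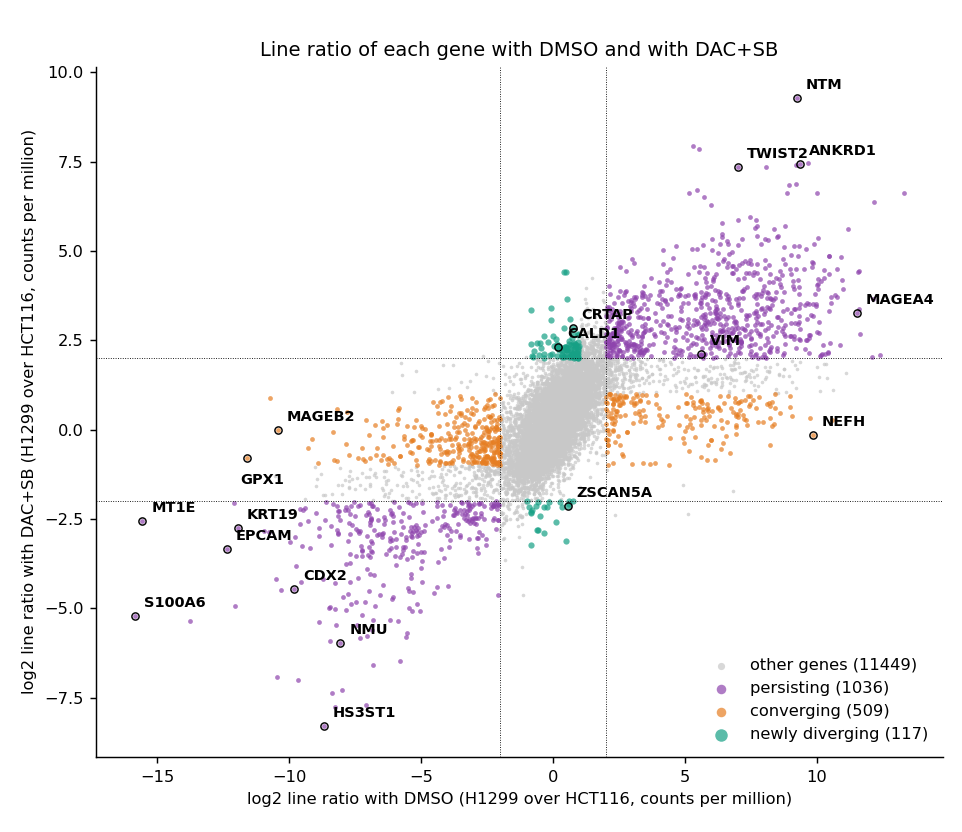
Each point is 1 of 13111 genes that reach 100 counts in the higher library under both treatments, with the log2 line ratio (H1299 over HCT116, CPM) with DMSO on the x axis and with DAC+SB on the y axis, and dotted lines at 4-fold. The 1036 persisting genes lie in the outer corners, the 509 converging genes in flat bands on both sides and the 117 newly diverging genes above and below the centre.

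The distance between the lines shrank mainly at its extremes. Over the 13111 genes past the count limit under both treatments, the SD of the log2 line ratio was 2.37 with DMSO and 1.29 with DAC+SB, while the median absolute log2 line ratio was 0.65 and 0.69. The sign was the same under both treatments for 10165 genes (77.5%). As a description over genes that share the same 4 libraries, the line ratios under both treatments had a Pearson's r of 0.735 and a Spearman's rho of 0.739. Over the 10246 genes with at least 100 counts in every library the SD was 0.93 and 0.876, so most of the narrowing lay in genes under 100 counts in some library. That limit itself takes out genes with extreme ratios.

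H1299-high genes persisted more often than HCT116-high genes. Of the 1368 genes higher in H1299 with DMSO, 727 (53.1%) were still at least 4-fold higher with DAC+SB and 329 (24%) kept a 2- to 4-fold difference. Another 202 (14.8%) converged to under 2-fold, and 105 (7.68%) fell under 100 counts in the higher treated library. Of the 1119 genes higher in HCT116 with DMSO, 309 (27.6%) persisted, 260 (23.2%) kept a 2- to 4-fold difference and 307 (27.4%) converged. The other 223 (19.9%) named here were under 100 counts in the higher treated library. The treated HCT116 library was also the shallowest, so 100 counts stood for a higher CPM there than in the other libraries. With all libraries thinned to its total, there were 611 persisting H1299-high genes, 265 persisting HCT116-high genes, 158 converging H1299-high genes and 281 converging HCT116-high genes. Over shared features 187 HCT116-high genes persisted and 130 H1299-high genes converged. Of the 727 and 309 persisting genes, 603 and 182 kept their class there, and of the 202 and 307 converging genes 117 and 228. The median log2 line ratio over all genes passing was 0.107 with DMSO and 0.303 with DAC+SB. With size factors it was 0.02 and 0.13. The part of this shift toward H1299 in the unequal persistence was not tested. Persisting genes too had come closer, from a median log2 line ratio of 6.05 to 3.09 on the H1299 side and from -5.84 to -2.84 on the HCT116 side.

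Among genes that kept 100 counts in the higher treated library, convergence came mostly from the line that had been low. In 197 of the 202 converging H1299-high genes, the rise in HCT116 was larger than the fall in H1299, with median log2 changes of 4.99 in HCT116 and 0.22 in H1299. On the HCT116 side this held for 240 of 307 genes, with median log2 changes of 2.5 in H1299 and -0.58 in HCT116. The count limit sets part of these numbers. Among the genes that fell under it with DAC+SB, the larger change was a fall of the higher line for 54 of 105 H1299-high and 86 of 223 HCT116-high genes. New divergence in favour of H1299, among genes past the limit with DMSO, had the opposite form. In 76 of the 94 newly diverging H1299-high genes (7.05% of the treated calls on that side) the larger change was a fall in HCT116, with median log2 changes of -2.05 in HCT116 and -0.25 in H1299. All 23 newly diverging HCT116-high genes (3.32% of the treated calls on that side) changed more by a rise in HCT116, with a median of 2.44. The count limit sets part of this form too, since genes under it with DMSO were counted apart. These were 302 H1299-high genes, with median log2 changes of 2.93 in H1299 and 2.44 in HCT116. On the HCT116 side they were 307, with 3.22 in H1299 and 5.75 in HCT116.

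The 4 genes proposed as markers behaved in 4 different ways. VIM encodes vimentin, the intermediate filament of mesenchymal cells, and lies on chromosome 10 from 17228259 to 17237593 (GRCh38, GENCODE v29). Its level was 2280 CPM in control and 1150 CPM in treated H1299, and 47 CPM in control and 265 CPM in treated HCT116. Both H1299 libraries were high, and the treated line difference was 4.34-fold (4.25 to 4.43), against 48.5-fold (46.8 to 50.3) with DMSO. The treated value lay just past the limit, and with size factors it was 1.95 on the log2 scale, under it. After each cell was thinned to 3300 counts, a VIM count was found in 98.9% of control and 89.8% of treated H1299 cells, against 10.5% and 43.8% of HCT116 cells (100%, 99.4%, 29% and 64.1% without thinning).

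MAGEB2, an X-linked cancer-testis antigen of the MAGE family (chromosome X from 30215560 to 30220089), converged. It had 0 counts in control H1299 and stood at 70.4 CPM in treated H1299, 64.1 CPM in control HCT116 and 70.6 CPM in treated HCT116. Control H1299 alone was low. The DMSO difference was at least 1380-fold in favour of HCT116 (0 counts set to 3), and the treated difference was 1.0-fold (0.956 to 1.05). Over shared features the treated log2 line ratio was 0.78. In thinned cells the share with a MAGEB2 count was 19.5% in treated H1299, 18.1% in control HCT116 and 19.4% in treated HCT116, and 0% in control H1299. Without thinning 0 of 3578 control H1299 cells had a listed count, and counts in features not listed in that library would not be seen. The unthinned treated shares were 56.5% in H1299 and 39.9% in HCT116, at the unequal depths given above.

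CCK, the precursor of the gut and brain hormone cholecystokinin (chromosome 3 from 42257825 to 42266207), diverged from low levels. It had 8 counts in control and 315 in treated H1299, and 1 in control and 11330 in treated HCT116, or 5.05 and 291 CPM in the treated libraries. HCT116 DAC+SB was high alone, 57.7-fold (51.6 to 64.7) above H1299 DAC+SB, with a shared-feature log2 line ratio of -4.94 against -5.85. CCK counts were found in 41.6% of thinned HCT116 DAC+SB cells and 1.33% of H1299 DAC+SB cells (58% and 5.48% without thinning). LGALS4, a galectin of intestinal epithelium, was not called in either comparison. It had 3, 100, 5 and 42 counts in control and treated H1299 and in control and treated HCT116, and the treated difference was 1.48-fold (1.03 to 2.18) in favour of H1299, the lung line.

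**Figure D2:**
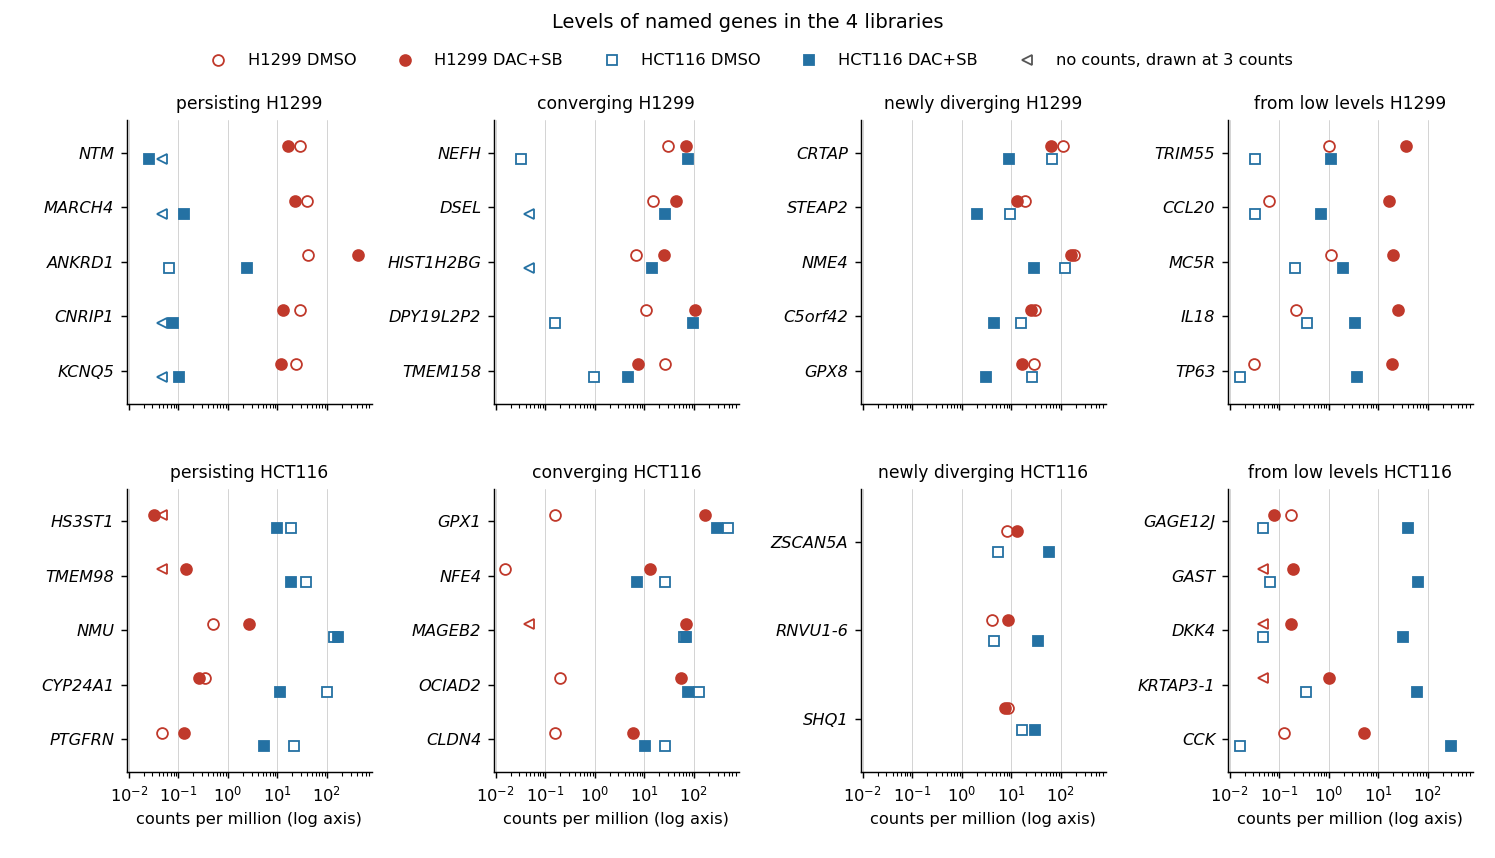
Levels in CPM on a log axis of the genes named by class, with H1299 as circles and HCT116 as squares, open for DMSO and filled for DAC+SB, and triangles for libraries without counts drawn at 3 counts. Persisting genes keep filled symbols apart, converging genes bring them together (NEFH at 68.9 and 77.1 CPM), and newly diverging H1299 genes show filled squares shifted left, as for GPX8 at 3.03 CPM.

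Persisting H1299-high genes with the largest treated difference were at or near 0 in HCT116 under both treatments. NTM, neurotrimin, a neural cell adhesion molecule (chromosome 11 from 131370478 to 132336822), had 1881 and 1002 counts in control and treated H1299 and 0 and 1 in HCT116. The treated difference was 625-fold (112 to 24700), or 9.29 on the log2 scale, 8.59 over shared features and 7.46 without cells over 25% mitochondrial counts. MARCH4, a membrane ubiquitin ligase, was at 22.5 CPM in treated H1299 and 0.128 in treated HCT116, a 175-fold difference (74.9 to 540). CNRIP1, which binds the cannabinoid receptor, was 170-fold higher in treated H1299 (57.9 to 825) and KCNQ5, a voltage-gated potassium channel, 115-fold higher (44.9 to 424). NTM, MARCH4, CNRIP1 and KCNQ5 each had 0 counts in HCT116 DMSO, and each was lower in H1299 with DAC+SB than with DMSO.

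ANKRD1 differed from these genes, since it was higher with DAC+SB in both lines. This target of YAP signalling and of stretch in muscle had 2691, 26523, 4 and 96 counts in control and treated H1299 and in control and treated HCT116, and the treated difference was 172-fold (141 to 213). Its shared-feature log2 line ratio was 6.31 against 7.43. Only 25.6% of thinned H1299 DAC+SB cells had an ANKRD1 count, and the top 1% of cells held 20.9% of its counts in that library. In treated HCT116 0.53% of thinned cells had one.

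Of the 18 gene lists, the mesenchymal list had most persisting H1299-high members. Of its 36 genes, 32 passed the count limit with DAC+SB, 13 were called higher in H1299 and 3 in HCT116, and 10 persisted on the H1299 side. Over all genes passing, 9.04% were called higher in H1299 and 4.69% higher in HCT116, and the counts of every list below stand beside these shares as descriptions, not tests. Percentages in brackets after the counts of a list are such shares over all genes, not shares of the list. The median treated log2 line ratio was 1.70 over these 32 members, beside 0.30 over all genes passing. With DMSO it was 1.64 over 27 members, beside 0.11. Over the 27 members passing under both treatments, the median size of the log2 line ratio was 3.48 with DMSO and 1.90 with DAC+SB. Of the most abundant members, LGALS1 was 1.28-fold higher in treated HCT116 and TPM2 1.05-fold higher in treated H1299. ZEB2, a repressor of epithelial genes, had 1309, 888, 0 and 55 counts in control and treated H1299 and in control and treated HCT116, a treated difference of 10.1-fold (7.66 to 13.5). TWIST1 was 5.2-fold (3.93 to 7.01) higher in treated H1299. TWIST2 had 264 counts there and 1 in treated HCT116, a 165-fold difference (29.3 to 6530).

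The receptor tyrosine kinase AXL kept its line difference while its level fell in both lines. It stood at 204 and 21.3 CPM in control and treated H1299 and at 22.2 and 2.16 CPM in HCT116, with a line difference of 9.18-fold (8.69 to 9.71) and then 9.88-fold (7.92 to 12.5). TPM1, a tropomyosin, was 6.13-fold (5.88 to 6.39) higher in treated H1299, and TGFBI, a matrix protein induced by TGF-beta, 7.74-fold (5.89 to 10.4). CTGF, a matrix protein and YAP target, was at 72.4, 349, 3.9 and 77.5 CPM in control and treated H1299 and in control and treated HCT116, so the treated HCT116 level reached that of untreated H1299 while the line difference was still 4.5-fold (4.34 to 4.68).

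The 3 mesenchymal genes called higher in HCT116 ran against the list. SNAI1 and SNAI2, the Snail and Slug repressors of E-cadherin, were 4.76-fold (4.27 to 5.3) and 19.2-fold (13.5 to 28) higher in treated HCT116, and both were higher there with DMSO too. SNAI2 had a shared-feature log2 line ratio of -3.34 against -4.26. THY1, a surface glycoprotein of fibroblasts and neurons, had 0, 1175, 12 and 4151 counts in control and treated H1299 and in control and treated HCT116, a treated difference of 5.67-fold (5.31 to 6.05).

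Persisting HCT116-high genes were led by HS3ST1, a heparan sulfate sulfotransferase, with 0 and 2 counts in control and treated H1299 and 1201 and 390 in HCT116. The treated difference was 313-fold (86 to 2590), with a log2 line ratio of -8.29, which was -7.55 over shared features and -7.61 with libraries thinned to 1 total. TMEM98, a membrane protein, was 129-fold higher (67.5 to 283) in treated HCT116, or -4.68 against -7.01 on the log2 scale over shared features. NMU, the neuropeptide neuromedin U, was at 0.511, 2.72, 136 and 171 CPM in control and treated H1299 and in control and treated HCT116, a 62.7-fold treated difference (53.8 to 73.4) that both HCT116 libraries shared. CYP24A1, which breaks down active vitamin D, went from 100 to 11.4 CPM in HCT116 and remained 44.3-fold (27 to 78.2) above treated H1299, or -5.47 on the log2 scale, -4.69 over shared features and -6.10 as a mean over cells. PTGFRN, a tetraspanin partner, was 41.9-fold higher (20.9 to 98.3), or -5.39 on the log2 scale and -6.12 after thinning.

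S100A6, KRT19 and EPCAM were near 0 in H1299 DMSO, higher in H1299 DAC+SB and still 4-fold or more below HCT116 there. S100A6, the calcium-binding protein calcyclin (chromosome 1 from 153534599 to 153536244), had 0, 5569, 171505 and 129807 counts in control and treated H1299 and in control and treated HCT116. The line difference was at least 58900-fold with DMSO and 37.4-fold (36.4 to 38.4) with DAC+SB. On the log2 scale over shared features these were -13.26 against -15.85, with 0 counts set to 3, and -4.36 against -5.22. At 3300 counts a cell, 0 of 3578 H1299 DMSO cells, 19% of H1299 DAC+SB cells and 98.7% of HCT116 DAC+SB cells had an S100A6 count.

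KRT19, a keratin of simple epithelia, was at 0.0465, 42.2, 181 and 287 CPM in the same order of libraries, with a treated difference of 6.81-fold (6.52 to 7.1) and a shared-feature log2 value of -2.05 against -2.77. EPCAM, the epithelial cell adhesion molecule, was at 0.0155, 4.47, 80.7 and 45.2 CPM and 10.1-fold (8.91 to 11.5) higher in treated HCT116. Both HCT116 libraries were above both H1299 libraries for KRT19 and for EPCAM. In thinned cells 1.32% of H1299 DAC+SB and 12.8% of HCT116 DAC+SB cells had an EPCAM count.

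Of the 28 genes of the epithelial junction list, 22 passed with DAC+SB, 9 were called higher in HCT116 and 1 in H1299, and 8 persisted while 6 converged on the HCT116 side (all genes: 4.69% higher in HCT116 and 9.04% in H1299). The median log2 line ratio of the members passing was -5.87 with DMSO and -1.17 with DAC+SB, beside 0.11 and 0.30 over all genes. SPINT1, an inhibitor of membrane serine proteases, was 7.34-fold (6.28 to 8.62) higher in treated HCT116. CLDN7, a claudin, was 4.21-fold (3.65 to 4.87) higher, but its shared-feature log2 value of -1.31 lay under the limit. Among the converging members CLDN3 had treated levels of 21.7 and 12.5 CPM in H1299 and HCT116, and the desmosomal cadherin DSG2 16.6 and 15.8 CPM. The exception on the H1299 side was CLDN1, another claudin, at 562, 292, 0 and 27 counts.

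Of the 25 genes of the colon epithelium list 8 passed with DAC+SB, and 3 were called, each higher in HCT116 (all genes 4.69%). CDX2, the transcription factor of intestinal identity, had 1, 18, 875 and 249 counts in control and treated H1299 and in control and treated HCT116, a treated difference of 22.2-fold (13.7 to 38.1). EPHB3, an ephrin receptor of crypt cells, was 12.7-fold (9.84 to 16.7) higher. KRT20, a keratin of differentiated colon cells, had 0 and 169 counts in the treated libraries, a difference of at least 90.3-fold. The leukocyte list, taken as a check for other cells, had 3 of 19 genes passing. Its summed level was 12.6 CPM in treated H1299 and 21.5 in treated HCT116, against 2.12 and 5.51 with DMSO, and its called genes were CD3D (44 and 183 counts) and CSF1R (34 and 165 counts). The part of the 30 shared barcodes in such low levels was not tested.

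Converging H1299-high genes were led by NEFH, the heavy neurofilament subunit (chromosome 22 from 29480230 to 29491390). Its levels were 29.6, 68.9, 0.0319 and 77.1 CPM in control and treated H1299 and in control and treated HCT116. HCT116 DMSO alone was low, so the line difference went from 928-fold (256 to 7660) in favour of H1299 to 1.12-fold (1.07 to 1.17) in favour of HCT116. Over shared features the treated log2 value was 0.28 against -0.16. NEFH counts were found in 18.5% of thinned H1299 DAC+SB cells and 18.7% of thinned HCT116 DAC+SB cells, against 8.78% and 0.00951% with DMSO.

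DSEL, which modifies dermatan sulfate, had 0 counts in HCT116 DMSO and 25.5 CPM in HCT116 DAC+SB against 43.7 CPM in treated H1299. The histone H2B gene HIST1H2BG followed the same course with 14.2 and 24.9 CPM, although histone genes are near-identical copies and the counting could divide their reads. DPY19L2P2, a transcribed pseudogene with close copies, stood at 104 and 96.8 CPM in treated H1299 and HCT116. TMEM158, a membrane protein induced by Ras signalling, converged by another route: it was lower with DAC+SB in H1299 (25.7 to 7.37 CPM) and higher in HCT116 (0.958 to 4.7 CPM).

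Genes named as zinc fingers, a group looked at after their values were seen, made up 34 of the 202 converging H1299-high genes (16.8%) and 75 of the 727 persisting ones (10.3%), beside 498 of all 14764 passing genes (3.37%) and 5 of the 307 converging HCT116-high genes (1.63%). Many human zinc finger genes of this type lie in clusters on chromosome 19. Chromosome 19 held 21.5% of the converging and 15.6% of the persisting H1299-high genes with a known position, against 7.8% of all passing genes with one. It also held 12.6% of the converging HCT116-high genes. With DMSO 149 of 484 passing zinc finger genes were called higher in H1299 and 13 in HCT116, beside 9.92% and 8.11% of all genes. With DAC+SB the numbers were 89 and 11 of 498, beside 9.04% and 4.69% of all genes. Converging and persisting H1299-high genes come only from those called with DMSO. Of the 149 zinc finger genes called there, 75 persisted and 34 converged. Of all 1368 genes called there, 727 (53.1%) persisted and 202 (14.8%) converged.

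Converging HCT116-high genes were led by GPX1, the cytosolic glutathione peroxidase (chromosome 3 from 49357171 to 49358600), whose promoter is printed above. It had 10 counts in control and 10453 in treated H1299, and 29881 in control and 11364 in treated HCT116. The line difference was 3080-fold (1670 to 6420) with DMSO and 1.74-fold (1.7 to 1.79) with DAC+SB, and over shared features the log2 values were -8.97 against -11.59 with DMSO and 0.39 against -0.80 with DAC+SB. In thinned cells 37.6% of H1299 DAC+SB and 55.8% of HCT116 DAC+SB cells had a GPX1 count.

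OCIAD2, a mitochondrial and endosomal protein, stood at 0.201, 54.9, 125 and 77.6 CPM in control and treated H1299 and in control and treated HCT116. NFE4, a regulator of fetal globin, was 1.85-fold (1.61 to 2.12) higher in H1299 after treatment, having had 1 count in H1299 DMSO and 26.4 CPM in HCT116 DMSO. CLDN4, a claudin of tight junctions, reached 5.89 CPM in treated H1299 against 10.3 CPM in treated HCT116, with a shared-feature log2 value of 0.16 against -0.80. For OCIAD2 and CLDN4, as for GPX1, part of the narrowing was a lower level in treated HCT116.

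Newly diverging genes in favour of H1299 were mostly lower in treated than in control HCT116. CRTAP, a partner of the collagen prolyl 3-hydroxylase (chromosome 3 from 33113979 to 33147773), was at 110 and 63.9 CPM in control and treated H1299 and at 65.7 and 8.86 CPM in HCT116. HCT116 DAC+SB stood apart below the other libraries, and the line difference went from 1.68-fold (1.61 to 1.74) to 7.21-fold (6.45 to 8.07). A CRTAP count was found in 18.9% and 2.53% of thinned H1299 and HCT116 DAC+SB cells, against 30.1% and 18.8% with DMSO.

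GPX8, an endoplasmic reticulum peroxidase, had nearly equal DMSO levels of 28.7 and 25.7 CPM and treated levels of 16.1 and 3.03 CPM, a 5.31-fold difference (4.38 to 6.48). CALD1, the actin regulator caldesmon, was at 147, 194, 128 and 38.7 CPM in control and treated H1299 and in control and treated HCT116, and its line difference went from 1.14-fold (1.11 to 1.18) to 5.02-fold (4.75 to 5.3). STEAP2, a metalloreductase, and C5orf42, a gene of primary cilia, were 6.3-fold (5 to 8.03) and 5.44-fold (4.66 to 6.39) higher in treated H1299, and STEAP2 had a shared-feature log2 value of 3.36 against 2.65. NME4, a mitochondrial nucleoside diphosphate kinase, was at 159 and 28.6 CPM in treated H1299 and HCT116, a 5.56-fold difference (5.22 to 5.92). In these 6 genes HCT116 DAC+SB was the lowest of the 4 libraries.

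Newly diverging genes in favour of HCT116 were few, and 3 met the rule for naming. ZSCAN5A, a zinc finger gene, was at 8.01, 13, 5.44 and 57 CPM in control and treated H1299 and in control and treated HCT116, a treated difference of 4.4-fold (4.05 to 4.77). RNVU1-6, a variant U1 small nuclear RNA gene with many near-identical copies, was 4.1-fold (3.71 to 4.54) higher, and SHQ1, an assembly factor for H/ACA ribonucleoproteins, 4.01-fold (3.6 to 4.48). RNVU1-6 was at -1.96 on the log2 scale with thinned libraries and SHQ1 at -1.97 without cells over 25% mitochondrial counts, both under the limit. SHQ1 lay just inside it, and its DMSO difference of 1.95-fold (1.76 to 2.17) just under 2-fold.

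A further 302 H1299-high genes (22.6% of the treated calls on that side) and 307 HCT116-high genes (44.4%) came from below 100 counts in the higher DMSO library. Their DMSO line ratio was left free. Its median on the log2 scale was 1.78 for the H1299-high and -0.85 for the HCT116-high genes. Over shared features only 140 of these 302 and 134 of these 307 genes kept this class. On the H1299 side TRIM55, a muscle ubiquitin ligase, reached 36.8 CPM in treated H1299 and 1.13 CPM in treated HCT116, a 32.5-fold difference (24.2 to 44.9), with a shared-feature log2 value of 5.91 against 5.02. TRIM55 was already 31.1-fold (8.26 to 262) higher in H1299 with DMSO, on 64 and 2 counts. The chemokine CCL20 was 24-fold (16.4 to 36.7) higher in treated H1299, where 3.06% of thinned cells had a count and the top 1% of cells held 51.4% of its counts. The melanocortin receptor gene MC5R was 9.94-fold (7.89 to 12.7) higher, and with DMSO 5.38-fold (2.95 to 10.6) higher on 72 and 13 counts. The cytokine gene IL18 was at 24.8 and 3.34 CPM, a 7.44-fold difference (6.22 to 8.97) with a shared-feature log2 value of 4.14 against 2.90. TP63, a p53 family transcription factor of basal epithelia, was at 18.5 and 3.67 CPM, a 5.05-fold difference (4.24 to 6.05). TRIM55, CCL20, MC5R, IL18 and TP63 were all higher with DAC+SB than with DMSO in both lines. In control H1299 and control HCT116, CCL20 had 4 and 2 counts, IL18 14 and 23, and TP63 2 and 1.

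On the HCT116 side 2 related gut hormones stood out. GAST, the gastrin precursor, had 0, 12, 4 and 2467 counts in control and treated H1299 and in control and treated HCT116, a 330-fold difference (188 to 639) that was -4.43 against -8.37 on the log2 scale over shared features. A GAST count was found in 11.5% of thinned HCT116 DAC+SB cells. CCK, which shares with gastrin its active end and receptors, is described above.

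DKK4, a secreted Wnt antagonist, was 181-fold higher (101 to 363) in treated HCT116, or -4.84 against -7.50 over shared features, and 53.1% of its counts there lay in the top 1% of cells. GAGE12J, a cancer-testis antigen with near-identical copies, had 5 and 1551 treated counts, a 497-fold difference (213 to 1530) or -5.80 against -8.96 over shared features. KRTAP3-1, a hair keratin-associated protein, was at 1.01 and 61.4 CPM, a 60.8-fold difference (47.4 to 79.4), or -6.83 against -5.93 on the log2 scale without the 5% of cells richest in counts. Chromosome X carried 25 of the 227 HCT116-high genes of this kind with a known position (11%) and 5 of the 161 H1299-high ones (3.11%), against 3.57% of all passing genes with one. The share among all genes that pass only with DAC+SB, from which these come, was not counted apart.

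**Figure D3:**
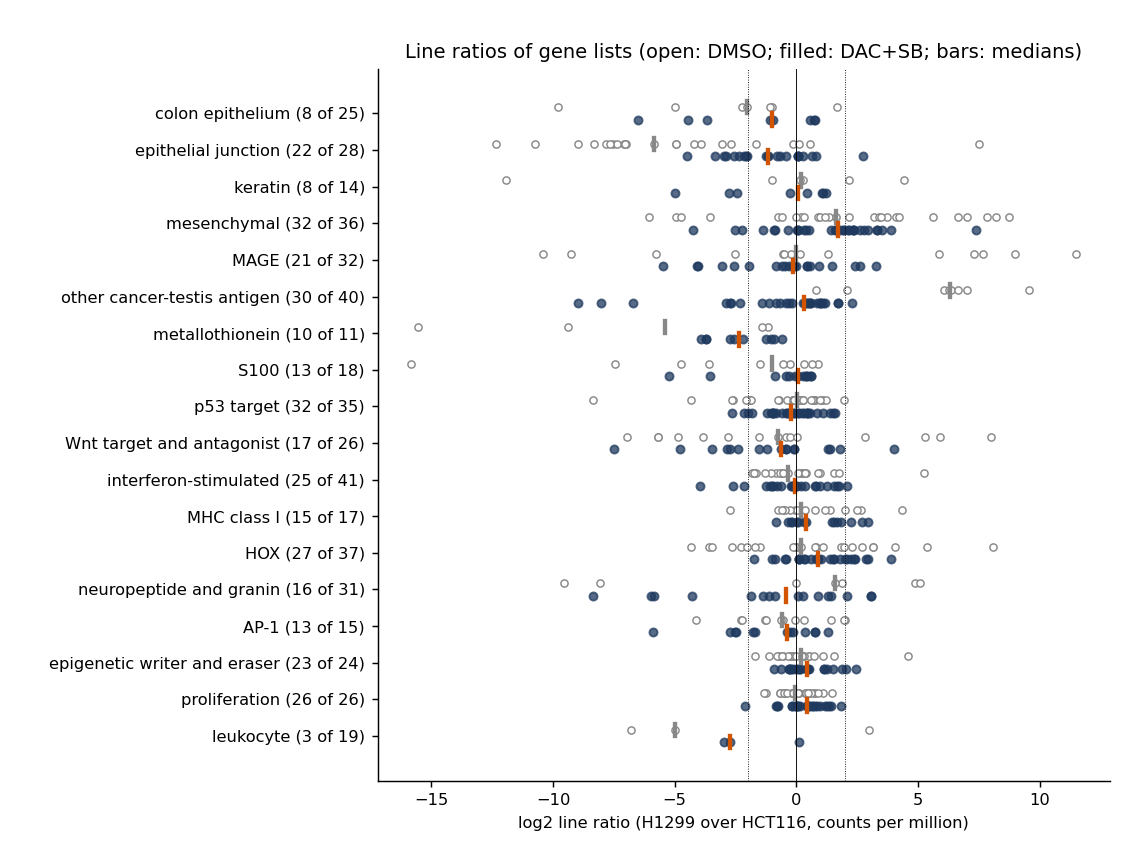
Log2 line ratios (H1299 over HCT116, CPM) of the members of 18 gene lists that reach 100 counts in the higher library, open circles for DMSO and filled for DAC+SB, bars at the medians, labels giving the number passing with DAC+SB of those in the table, and dotted lines at 4-fold. Medians are over the members passing under each treatment, -5.87 and -1.17 for the epithelial junction list and 6.31 (8 genes) and 0.31 (30 genes) for the other cancer-testis antigens. For the mesenchymal list they were 1.64 (27 genes) and 1.70 (32 genes).

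Cancer-testis antigens lay on both sides. Of 32 MAGE genes 21 passed with DAC+SB, with 3 called higher in H1299 (all genes 9.04%), 5 in HCT116 (4.69%) and a median log2 line ratio of -0.12. MAGEA4 (chromosome X from 151912509 to 151925170) was at 139, 155, 0 and 16 CPM in control and treated H1299 and in control and treated HCT116, a treated difference of 9.69-fold (8.94 to 10.5) against at least 2910-fold with DMSO. MAGEC2 had 22 and 617 treated counts, 45-fold (29.4 to 72.3) higher in HCT116, or -4.50 against -5.49 over shared features. MAGEA3 was at 36.1 and 39 CPM in the treated libraries. Many MAGEA genes are close copies, so reads could be divided among them.

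The other cancer-testis antigens were mostly under the count limit with DMSO, where 8 passed and 7 were called higher in H1299 (all genes 9.92%). With DAC+SB 30 of the 40 genes in the table passed, with 1 called higher in H1299 (all genes 9.04%) and 7 in HCT116 (4.69%). The median log2 line ratio was 6.31 over the 8 genes passing with DMSO and 0.31 over the 30 passing with DAC+SB. Over the 8 passing under both treatments the median size of the log2 line ratio was 6.31 and 1.02. TKTL1, a transketolase-like gene, had 26, 862, 2 and 3469 counts in control and treated H1299 and in control and treated HCT116, a treated difference of 6.45-fold (5.99 to 6.96). BRDT, the testis bromodomain protein, was at 27.5 and 34.2 CPM in the treated libraries and at 0 and 4 counts with DMSO. PRAME was higher in H1299 under both treatments, 4.18-fold (3.9 to 4.48) with DMSO and 3.24-fold (2.99 to 3.51) with DAC+SB. SPANXB1 and SPANXC, called higher in HCT116, are near-identical copies, so reads could be divided between them.

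Metallothioneins, the small cysteine-rich proteins that bind zinc and copper, were all on the HCT116 side of the treated comparison when called. Of 11 genes 10 passed and 6 were called higher in HCT116, with none called higher in H1299 and a median log2 line ratio of -2.36. Over all genes 4.69% and 9.04% were called in those directions. MT1E was at 0.031, 272, 1490 and 1590 CPM in control and treated H1299 and in control and treated HCT116, and its treated difference was 5.83-fold (5.74 to 5.93). The shared-feature log2 value of -1.64 lay under the limit. MT1G was near 0 in both DMSO libraries and at 31.5 and 419 CPM in treated H1299 and HCT116, a 13.3-fold difference (12.7 to 13.9), or -3.0 against -3.73 over shared features. MT1A followed with 10.2 and 67.9 CPM and a shared-feature log2 value of -4.15 against -2.73. MT2A, the most widely expressed member, was at 1430, 3270, 3850 and 6700 CPM, higher in HCT116 by 2.7-fold with DMSO and 2.05-fold with DAC+SB. These genes are close copies in a cluster on chromosome 16, so single members are uncertain.

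Of 18 S100 genes 13 passed and 2 were called, both higher in HCT116 (all genes 4.69%), with a median of 0.07. S100A4 converged, at 2.73, 26.2, 72.3 and 48.5 CPM in control and treated H1299 and in control and treated HCT116. S100A10 and S100A11 differed by less than 2-fold between the lines under both treatments. Of the 14 keratins 8 passed and 3 were called higher in HCT116 (all genes 4.69%), while KRT18 was 2.08-fold (2.04 to 2.12) higher in treated H1299, with 676 and 325 CPM.

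AP-1 genes, the immediate early transcription factors, had 13 of 15 members passing, 4 called higher in HCT116 (all genes 4.69%) and none in H1299 (9.04%), with a median of -0.40. FOS was at 9.66, 34.3, 46.1 and 199 CPM in control and treated H1299 and in control and treated HCT116, so both lines were higher with DAC+SB and the line difference was 4.78-fold (4.38 to 5.22) and 5.81-fold (5.54 to 6.1). ATF3, a stress-response factor, behaved alike with 5.6-fold (5.29 to 5.94). JUN was at 56.4 and 193 CPM in the treated libraries, a 3.43-fold difference (3.29 to 3.57) under the limit. The treated HCT116 library also had the higher mitochondrial share and the lower depth, whose part in this difference was not tested.

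Of the 35 genes of the p53 target list 32 passed, none was called higher in H1299 (all genes 9.04%) and 2 in HCT116 (4.69%), with a median of -0.21. CDKN1A, the cell cycle inhibitor p21, was at 52.5, 119, 30.5 and 102 CPM in control and treated H1299 and in control and treated HCT116, and the treated difference was 1.17-fold (1.13 to 1.22) in favour of H1299. PMAIP1, the apoptosis gene NOXA, was at 29.4 and 186 CPM in the treated libraries, a 6.32-fold difference (6 to 6.65) that had been 3.84-fold with DMSO. RPS27L was 1.12-fold (1.09 to 1.15) higher in treated HCT116.

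Of 26 Wnt targets and antagonists 17 passed, 6 were called higher in HCT116 (all genes 4.69%) and 1 in H1299 (9.04%), with a median of -0.64 with DAC+SB and -0.76 with DMSO. DKK1, a secreted Wnt antagonist, was at 12.7, 66.1, 646 and 436 CPM in control and treated H1299 and in control and treated HCT116, a treated difference of 6.6-fold (6.38 to 6.83) against 50.9-fold with DMSO. NKD1 and SP5, feedback targets of the pathway, were 11.2-fold (9.33 to 13.5) and 7.19-fold (5.33 to 9.84) higher in treated HCT116. The exception was DKK3, with 787 and 30 treated counts, 16.4-fold (11.4 to 24.4) higher in H1299. CCND1, cyclin D1, was level between the DMSO lines at 263 and 258 CPM and at 111 and 42.7 CPM in treated H1299 and HCT116, a 2.6-fold difference (2.47 to 2.75).

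Of 41 interferon-stimulated genes 25 passed, 1 was called higher in H1299 (all genes 9.04%) and 3 in HCT116 (4.69%), with a median of -0.06. IRF7, the factor that amplifies the interferon response, had 376, 2002, 574 and 5487 counts in control and treated H1299 and in control and treated HCT116. Its treated difference of 4.4-fold (4.18 to 4.63) fell to a log2 value of -1.0 over shared features. ISG15 was 2.35-fold (2.27 to 2.43) higher in treated HCT116.

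Of the 17 measured MHC class I pathway genes, 15 passed and 3 were called, all higher in H1299 (all genes 9.04%). TAPBP, the tapasin that loads peptides, was 6.5-fold (5.56 to 7.63) higher, PSMB8, an immunoproteasome subunit, 7.72-fold (6.33 to 9.49), and the peptide-trimming enzyme ERAP1 4.68-fold (3.33 to 6.75). PSMB8 had a shared-feature log2 value of 3.94 against 2.95. B2M, the light chain, was at 303 and 355 CPM in the treated lines.

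HOX genes, which set position along the body axis, had 27 of the 37 genes in the table passing, 7 called higher in H1299 (all genes 9.04%) and none in HCT116 (4.69%) with DAC+SB, where with DMSO 7 and 6 had been called (9.92% and 8.11%). The median of those passing was 0.19 with DMSO and 0.91 with DAC+SB. HOXB9 had 827 and 98 treated counts, 5.26-fold (4.26 to 6.56) higher in H1299 with a shared-feature log2 value of 3.18 against 2.4, and HOXC8 658 and 28, 14.7-fold (10 to 22.2) higher. HOXB2, near 0 in HCT116 DMSO, was at 35 and 12.5 CPM in the treated lines, a 2.81-fold difference (2.54 to 3.1) that was 3.71 against 1.49 on the log2 scale over shared features.

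Neuropeptide and granin genes were called in both directions. Of 31 genes 16 passed, 3 were called higher in H1299 (all genes 9.04%) and 4 in HCT116 (4.69%), with a median of -0.42. GAL, galanin, was at 0.604, 17.3, 456 and 334 CPM in control and treated H1299 and in control and treated HCT116, a treated difference of 19.3-fold (18.2 to 20.6). CHGB, a granin of secretory vesicles, was 8.36-fold (6.17 to 11.6) higher in treated H1299, and VGF was at 103 and 99.8 CPM. POMC, the precursor of several peptide hormones, was at 0 in both controls and had 4286 and 2193 counts in treated H1299 and HCT116, a 1.22-fold difference.

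Of 24 writers and erasers of chromatin marks, which include the enzymes the drugs act on, 23 passed, 2 were called higher in H1299 (all genes 9.04%) and none in HCT116 (4.69%), with a median of 0.44. DNMT1, the maintenance methyltransferase that decitabine traps, was at 229, 108, 201 and 131 CPM in control and treated H1299 and in control and treated HCT116, and the treated difference was 1.22-fold (1.17 to 1.26) in favour of HCT116. HDAC1 was 2.4-fold (2.25 to 2.55) and HDAC2 1.36-fold (1.31 to 1.42) higher in treated H1299. The called genes were HDAC7, 5.46-fold (4.41 to 6.83), and HDAC9, 4.06-fold (3.42 to 4.84), just past the limit, with a shared-feature log2 value of 3.15 against 2.02. All 26 proliferation genes passed, with 1 called, CDC6, 4.37-fold (4.02 to 4.75) higher in treated HCT116. Their median was 0.45 beside 0.30 over all genes, and MKI67, the Ki-67 antigen, was at 145 and 167 CPM.

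Some genes changed sides: 2 of the 1368 H1299-high genes (0.146%) and 1 of the 1119 HCT116-high genes (0.0894%) were 4-fold apart in the opposite direction with DAC+SB. LINC00540, a long noncoding RNA, had 145, 348, 4 and 1119 counts in control and treated H1299 and in control and treated HCT116, and TTC9B, a tetratricopeptide repeat gene, 43, 1836, 265 and 274. The third such gene was the clone-named RNA RP11-138I1.4, with 106, 155, 20 and 505 counts. MATN2, a matrix protein, went from 2.01-fold higher in HCT116 with DMSO to 4.08-fold (3.1 to 5.46) higher in H1299 with DAC+SB. Over shared features LINC00540, TTC9B and RP11-138I1.4 had treated log2 line ratios of -1.39, 1.79 and -1.87, under the limit, and MATN2 was at 1.85 with size factors. With DMSO the shared-feature values of the same 3 genes were 4.07, -0.75 and 1.03, but on only 69, 70 and 42 counts in the higher library, and that of MATN2, on 91 and 92 counts, was -0.06 against -1.01. These 4 genes were picked after their values were seen, and the differences between treatments were not tested.

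Line identity was still legible in nearly every single treated cell. For each thinned cell, the counts of the 1368 H1299-high genes were divided by those of these and the 1119 HCT116-high genes together, both sets having been chosen on the DMSO libraries. The median was 93.6% in control H1299 and 8.25% in control HCT116, which the choice of genes fixes, and 79.5% in treated H1299 and 18.6% in treated HCT116. The range was 59.3% to 95.4% over the 3726 treated H1299 cells and 3.82% to 51.1% over the 3925 treated HCT116 cells deep enough, with 402 shallower HCT116 cells (9.29%) left out. All 3726 treated H1299 cells lay above 50%, and 1 treated HCT116 cell did. Without the 10 most abundant genes of each set the treated medians were 80% and 22.6%.

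**Figure D4:**
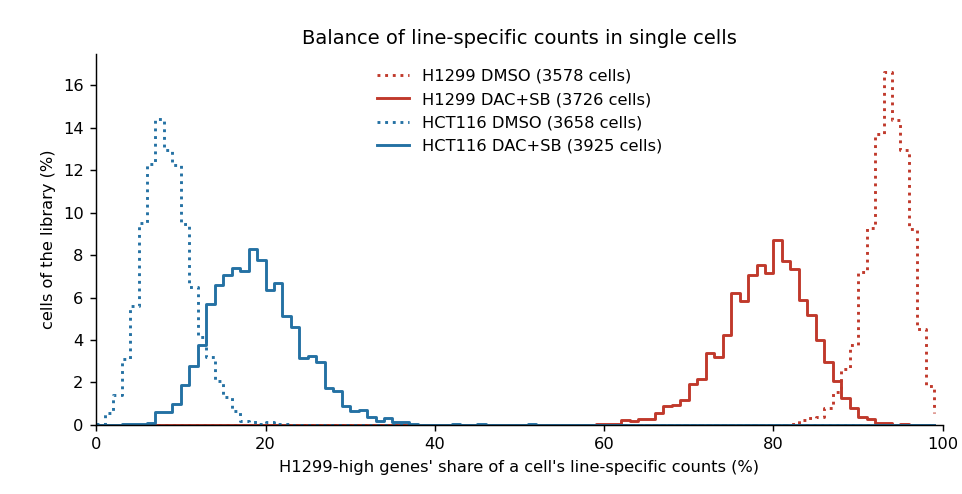
Distribution over cells thinned to 3300 counts of the H1299-high genes' share of line-specific counts (x axis, %), as the percent of cells of each library (y axis), dotted for DMSO and solid for DAC+SB, red for H1299 and blue for HCT116. The treated distributions move inward, to medians of 79.5% and 18.6%, and stay apart.

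The inward movement went with a larger share of the opposite line's genes. HCT116-high genes made up a median 0.242% of counts in control and 0.788% in treated H1299 cells, and H1299-high genes 0.273% in control and 0.727% in treated HCT116 cells. Each line's own set went from 3.42% to 2.97% in H1299 and from 3.21% to 3.18% in HCT116. Doublets were not called. An alternative without the deepest 5% of cells gave 1304 and 657 treated calls in place of 1334 and 692.

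TE counts were a larger share of the treated HCT116 library, 5.56% against 3.09% in treated H1299, a log2 line ratio of -0.85 or 1.8-fold. With DMSO it was higher in HCT116 too, 0.319% against 0.199%, a log2 line ratio of -0.68. In the deposited table a TE family is divided into classes listed in a library only from 20 counts, so an unlisted class is not a 0, and over classes listed in all 4 libraries the log2 line ratio was -0.67. Of 261 families listed in both treated libraries and reaching 100 counts in the higher one, 35 (13.4%) were called higher in HCT116 and 7 (2.68%) higher in H1299, with a median log2 line ratio of -0.81. With DMSO the median over 139 families was 0.40, with 12 (8.63%) and 14 (10.1%) called. Over classes listed in all 4 libraries 6 and 1 families were called with DAC+SB.

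LTR13A showed the largest treated line difference among the families named by rule. This family, a long terminal repeat of an endogenous retrovirus, had 107 counts in treated H1299 and 5259 in treated HCT116, a 78.8-fold difference (65.1 to 96.4). LTR13 had 864 and 7762, a 14.4-fold difference (13.4 to 15.5), and LTR13_ 269 and 1151, a 6.86-fold difference (6 to 7.87). LTR8 with 286 and 3062 counts and MER66C with 286 and 1341 were also higher in HCT116, by 17.2-fold (15.2 to 19.5) and 7.52-fold (6.61 to 8.57). Without the locus with most counts in each family the log2 values were -5.99 for LTR13A, -3.62 for LTR13, -1.87 for LTR13_, -3.65 for LTR8 and -2.30 for MER66C, so LTR13_ no longer passed 4-fold.

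On the H1299 side only MER50B and L1MC_orf2 met the naming limit of 1000 counts. For them, as for LTR13A, LTR13, LTR13_, LTR8 and MER66C, no value over classes listed in all 4 libraries could be given. Counts in classes unlisted in a library would be missing from these totals, which the counting intervals do not cover. MER50B had 1830 and 213 treated counts, a 5.36-fold difference (4.65 to 6.2) or 2.42 on the log2 scale, which was 3.94 without its locus with most counts, and L1MC_orf2 1098 and 166, a 4.12-fold difference (3.5 to 4.89) that was 1.48 on the log2 scale without its locus with most counts.

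LTR12 families, long terminal repeats of another endogenous retrovirus, were abundant in both treated lines. LTR12C had 1155776 counts in H1299 DAC+SB and 1022532 in HCT116 DAC+SB, a log2 line ratio of -0.50. LTR12 and LTR12D were lower in H1299, with log2 line ratios of -1.77 and -2.0, and LTR12D was at -1.11 without a locus that held 53920 of its 102985 HCT116 counts. Names beginning with LTR12 made up 66.2% of TE counts in treated H1299 and 57.6% in treated HCT116. Names beginning with Alu had a log2 line ratio of -1.39 and those beginning with THE1 of -1.20, against -0.21 for L1.

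At single loci the lines overlapped in part. Of the 100 loci with most counts in each treated library 44 were the same. Among 2520 loci that reached 100 counts in the higher treated library, in classes listed in both, 981 (38.9%) were called higher in HCT116 and 181 (7.18%) higher in H1299, and 41 had 0 counts in the other treated library. The median log2 line ratio over these 2520 loci was -1.35, toward HCT116, and the calls were not corrected for it. Loci carry no coordinates in the deposited table and were not placed in the genome.

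**Figure D5:**
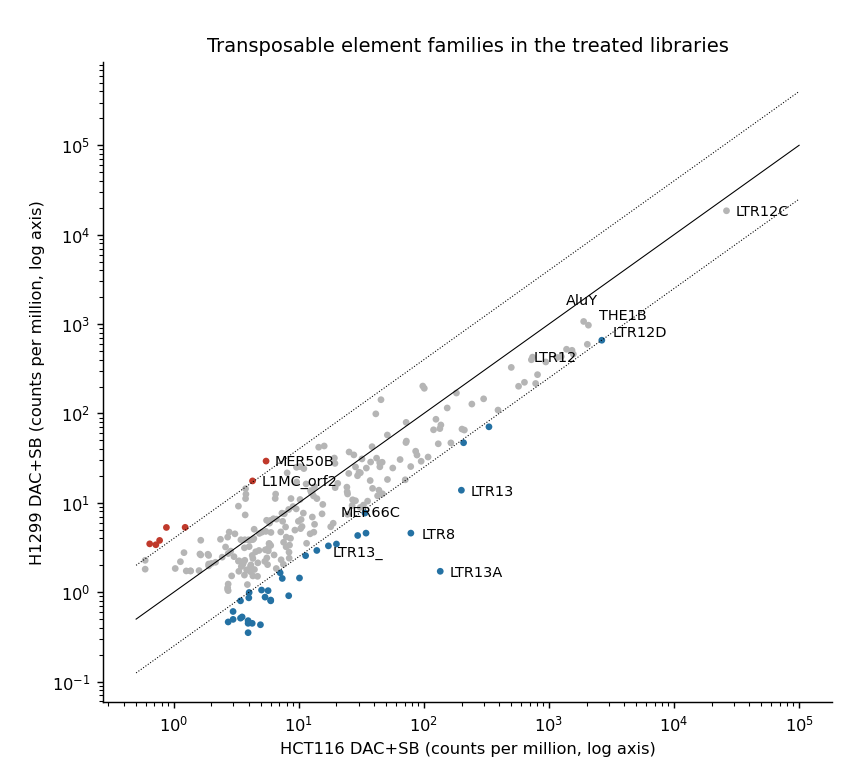
Level of each of the 261 TE families listed in both treated libraries, in CPM on log axes, HCT116 DAC+SB on the x axis and H1299 DAC+SB on the y axis, with equality as a solid and 4-fold as dotted lines, and families past 4-fold in blue (higher in HCT116) or red (higher in H1299). LTR13A, at 135 CPM in HCT116 and 1.71 CPM in H1299, lies farthest below the lines, while LTR12C lies near equality.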

How the data were processed

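The authors deposited counts per feature and cell for genes and for TEs, made from 5′ single-cell libraries. The submitters' processing notes name CASAVA, STAR and GRCh38 (hg38), and the sources used here give no further step. Whether a count is a read or a molecule is not stated there. All 15289 cells entered, and libraries were assigned by the line and treatment in the cell barcode. Gene counts were summed per library over features with the same name before the first bar, and 2419 names that join several genes, which hold 11.4% to 18.3% of gene counts, were left out. Levels (CPM) are scaled to the library's gene plus TE counts. A gene at 0 counts was set to 3, so its fold is a bound that would fail if an unlisted feature held counts. Positions come from GENCODE v29, matched by symbol.

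Classes compare the line ratio under both treatments: persisting (at least 4-fold in the same direction), converging (4-fold to under 2-fold), newly diverging (under 2-fold to at least 4-fold) and from low levels (under 100 counts in the higher DMSO library). Named genes are the 5 with the largest ratio per class and line with at least 1000 counts in a library, no clone name and the same class under both treatments of feature names, the 4 markers, and the 4 members of each list with the highest treated level. Other genes named, among them further list members, were chosen after their values were seen. The comparison, members, lists and markers were chosen with earlier results of these data known. The scripts were tested on simulated counts. Python 3.11.15, numpy 2.4.6, pandas 2.3.3, scipy 1.17.1 and matplotlib 3.10.9 were used.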

Additional observations from a re-analysis of the deposited data

Results flagged for a closer look

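Several genes had line ratios in opposite directions under the 2 treatments, and the difference between treatments was not tested. Beside those 4-fold apart both times, 3 of the 1368 H1299-high genes (0.219%) and 19 of the 1119 HCT116-high genes (1.7%) went to a 2- to 4-fold difference in favour of the other line. Values are given only for genes picked after they were seen, which include the 3 on the H1299 side and none of the 19. LINC00540 had a log2 line ratio (H1299 over HCT116) of 5.14 with DMSO and -2.37 with DAC+SB. TTC9B went from -2.67 to 2.06. The clone-named RNA genes RP11-138I1.4, RP11-108M21.1, RP11-401O9.4 and XXbac-BPG299F13.17 went from 2.36 to -2.39, from 6.84 to -1.70, from 4.91 to -1.55 and from 2.05 to -1.13. Over numbered features listed in all 4 libraries, LINC00540 was at 4.07 and -1.39, TTC9B at -0.75 and 1.79, and RP11-138I1.4 at 1.03 and -1.87 with DMSO and DAC+SB. Those DMSO values rest on 69, 70 and 42 counts in the higher library. XXbac-BPG299F13.17 had a treated value of -0.20 there, on 110 counts in H1299 and 79 in HCT116. RP11-108M21.1 had -0.64, on 38 and 37 counts.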

How the results depend on the processing

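Each group is 1 library, so intervals cover counting error only, nothing measures variation between cultures, and replicates could not be left out. No paired analysis was possible because each group has 1 library and no test was made. Depth limits the treated comparison on the HCT116 side, whose library had 38927267 counts against 62428673. In what follows, gene counts are in the order genes higher in H1299 than HCT116 with DAC+SB, genes higher in HCT116 than H1299 with DAC+SB, persisting H1299-high genes, persisting HCT116-high genes, converging H1299-high genes, converging HCT116-high genes, newly diverging genes higher in H1299 and newly diverging genes higher in HCT116. As reported they were 1334, 692, 727, 309, 202, 307, 94 and 23. A limit of 10 counts gave 2599, 2004, 1278, 694, 477, 744, 229 and 113, and a limit of 1000 counts 401, 139, 194, 53, 25, 31, 29 and 1. A 2-fold ratio gave 3781, 1802, 1961, 891, 321, 493, 601 and 212, and an 8-fold ratio 536, 309, 345, 123, 138, 164, 7 and 2. Numbered features listed in all 4 libraries moved 3 of these beyond 1.5 times, to 401 higher in HCT116, 187 persisting HCT116 and 130 converging H1299. Size factors, the denominator, joined names, cell filters and thinning kept all 8 within 1.5 times. TE families called higher in H1299 and HCT116 numbered 7 and 35, and 2 and 9 with 1000 counts, 24 and 110 at 2-fold, 0 and 9 at 8-fold, and 1 and 6 over classes listed in all 4 libraries. The log2 line ratio of the TE share was -0.85 as reported and without the 5% of cells with most counts, -0.95 with the smaller denominator, -0.80 without cells over 25% mitochondrial counts, -0.92 as a mean over cells and -0.67 over classes listed in all 4 libraries. For the 115 named genes, 673 of 920 alternative values moved by less than the counting interval, 247 moved more and 0 of those called changed direction. The cause of these moves was not tested.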
